A study of Mus musculus with 16 samples.

Results

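The genes that add the poly(A) tail and those that bind it were followed in RAW264.7 cells treated with cordycepin, LPS or both. The group held 10 genes, namely the canonical nuclear poly(A) polymerases Papola and Papolg, the noncanonical polymerases Papd4, Papd5 and Papd7, the mitochondrial polymerase Mtpap, the nuclear poly(A) binding protein Pabpn1, the cytoplasmic binding proteins Pabpc1 and Pabpc4, and the zinc finger protein Zc3h14. Members were every probe other than a control whose gene name in the array files was one of these symbols. This gave 11 of the 55681 probes on the array and 10 of its 34836 gene names. The rule itself used no measured value, but the genes were put forward with earlier results of these data known. Papolg had 2 probes and each other gene had 1. Papd4, Papd5 and Papd7 carry the current RefSeq symbols Tent2, Tent4b and Tent4a.

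Most mRNAs end in a poly(A) tail, which a nuclear poly(A) polymerase adds after the 3′ end has been cut by a complex of cleavage factors. The nuclear binding protein coats the growing tail and sets its length, and the cytoplasmic binding proteins then link the tail to translation and to the enzymes that shorten it. Noncanonical polymerases extend tails in the cytoplasm or mark RNAs for trimming in the nucleus. Cordycepin is 3′-deoxyadenosine, an adenosine analogue without the 3′ hydroxyl group, so that a chain which has taken it up cannot be extended.

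RAW264.7 is a line of mouse tumour origin that behaves like macrophages. Cells in medium with 0.5% serum received 20 μM cordycepin in DMSO, or DMSO alone, for 60 min. LPS at 1 μg/ml, a bacterial product that activates macrophages, was then added or not for a further 60 min, so that all cultures spent 120 min with cordycepin or vehicle. Cultures without LPS are named DMSO and cordycepin, those with it LPS+DMSO and LPS+cordycepin. There were 4 replicates of each, collected on different days, with 1 Agilent 1-colour array per culture and 16 arrays in all. Slide 1 carried replicates 1 and 2 of the conditions and slide 2 carried replicates 3 and 4.

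Between 37.1% and 51.2% of the spots of an array were well above background, 0 spots were saturated, and the number of arrays limits the precision. Signal values below are log2 of the processed intensity, scaled so that the 75th percentile was equal on all arrays. To be tested, a probe had to exceed background clearly (the flag of the scanner software) on the 4 arrays of some condition, which held for 21597 probes, 10 of them from the members. A probe was called at an adjusted p under 0.05 in the limma fit, adjusted over all probes tested, with no minimum fold. LPS raised all 4 of the response genes examined as a check, with Tnf higher by 6.71 on the log2 scale (SE 0.12, adjusted p = 1.62e-14). The 9 macrophage marker genes found on the array were well above background, 15 of their 16 probes on all 16 arrays. Of 16 probes for other cell types, those for Cd3e and S100a8 were well above background on 16 arrays and 1 for Mpo on 13, and the other 13 on 0 to 10 arrays. That Mpo probe rose with cordycepin, by 2.02 without LPS and by 3.97 with LPS (log2), where it was well above background on 2 of 4 arrays in DMSO and 3 of 4 in LPS+DMSO, and its part in the results for the members was not tested. In bulk samples, fewer cells of a type and less RNA per cell cannot be told apart.

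The probe sequences below show which piece of the mRNA was read for Papolg, Papola, Pabpn1, Pabpc1 and Zc3h14. They run 5′ to 3′ in the sense of the mRNA, as deposited with the arrays, and positions are on mm9. For Papolg and Papola the first 30 of 60 bases are shown. For Pabpn1, Pabpc1 and Zc3h14 all 60 are shown, with capitals for the codons that read MLLE in Pabpc1, the motif which names the peptide binding domain of the protein, and for the 3 cysteine codons of this stretch in Zc3h14.
Papolg A_51_P478003: tcgccaacagtttcttcatggattaggcat
Papolg A_52_P496792: gggtgtagatggagatagtctctaattccc
Papola A_55_P2134581: ctcaacccgttgtctccagatgcttaaaca
Pabpn1 A_55_P2064442: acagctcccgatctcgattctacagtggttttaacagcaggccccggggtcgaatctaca
Pabpc1 A_66_P115406: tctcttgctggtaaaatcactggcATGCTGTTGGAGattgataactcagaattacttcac
Zc3h14 A_52_P273594: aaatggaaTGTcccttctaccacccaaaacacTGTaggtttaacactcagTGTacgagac
The first Papolg probe lies at chr11:23762935-23762994 and the second at chr11:23770081-23770140, both on the minus strand, 7146 bases apart, so that the second is upstream in the direction of transcription. The Papola probe lies at chr12:107075105-107075164 on the plus strand. The longest run that the first Papolg probe shared with a probe named for another gene was 16 bases. For Papola it was 20 bases, and both runs were on the opposite strand. The Pabpc1 probe shared a run of 36 bases with another probe of the array that has no gene name, so its signal may include RNA of near-identical copies and is uncertain.

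Cordycepin changed the 2 canonical polymerases in opposite directions. Papolg fell over 3-fold with and without LPS, whereas Papola rose by a smaller amount in both settings. Papd7 fell in both settings. Papd4 was called lower without LPS only, with changes of -0.31 without it and -0.24 with it. Pabpn1 was called higher with LPS only, with changes of 0.25 without it and 0.32 with it. The interaction was not called for either gene. Of the 10 probes tested, 4 were called in cordycepin against DMSO, 1 higher and 3 lower, where 9.71% of all probes were called higher and 7.05% lower. In LPS+cordycepin against LPS+DMSO 4 were again called, 2 higher and 2 lower, against 12% and 8.18% of all probes. Papola, Papolg and Papd7, 3 of the 10, were called in both, as were 2787 of the 21597 probes tested. The 2 comparisons share no arrays, but cultures of the same day stood in both.

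Papolg encodes poly(A) polymerase gamma, a nuclear enzyme closely related to the main one. Its probe A_51_P478003 gave 8.50, 8.74, 8.63 and 8.64 in DMSO (replicates 1 to 4) and 6.74, 6.71, 7.19 and 6.95 in cordycepin. With LPS it gave 8.58, 8.70, 8.60 and 9.06 in LPS+DMSO and 6.47, 7.18, 7.14 and 7.21 in LPS+cordycepin. All 8 arrays with cordycepin were below all 8 without it, and the arrays with LPS overlapped those without it. Papolg fell by 1.73 on the log2 scale in cordycepin (SE 0.16, 95% interval -2.08 to -1.38, adjusted p = 1.86e-06), which is 3.31-fold (2.60 to 4.23). With LPS it fell by 1.74 (SE 0.16, adjusted p = 1.28e-06), or 3.33-fold (2.61 to 4.25).

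The fall in Papolg was seen on each of the 4 days, from -2.03 to -1.44 without LPS. Within slide 1 the change was -1.89 without LPS and -1.82 with it, and within slide 2 it was -1.57 and -1.65. In cordycepin against DMSO 34 of the 21597 probes, or 0.157%, had a lower fitted change, and in LPS+cordycepin against LPS+DMSO 73 probes, or 0.338%. Papolg was the 1 member that fell at least 2-fold in each comparison, where 1.08% and 1.61% of all probes did. Replicate 1 of LPS+cordycepin was the lowest of all arrays for Papolg, at 6.47, and on that array the lowest signal of any probe well above background was 6.32. Without that array the change with LPS was -1.56.

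**Figure D1:**
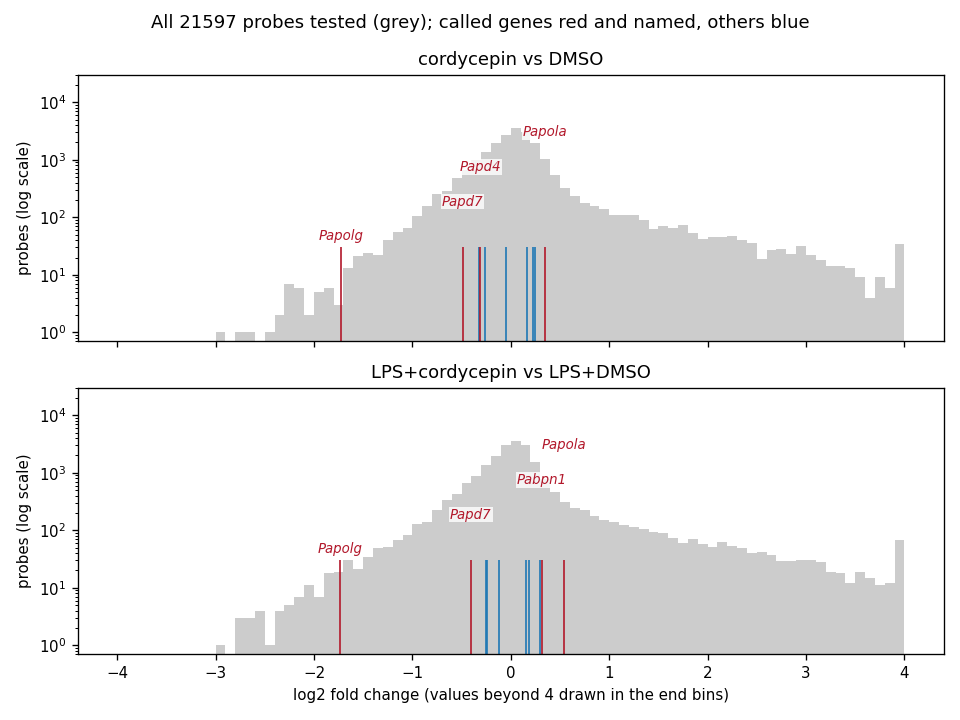
Number of probes (log scale) by log2 fold change in bins of 0.1, for cordycepin against DMSO (top) and LPS+cordycepin against LPS+DMSO (bottom), over all 21597 probes tested. Vertical lines mark the 10 genes, red and named where called and blue where not. Papolg, at -1.73 and -1.74, lies in the far left tail, and the other 9 lie between -0.49 and 0.54.

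The second Papolg probe, A_52_P496792, was well above background on 1 of 16 arrays, replicate 1 of cordycepin. Its values ran from 2.34 to 6.04 in DMSO, 2.86 to 5.51 in cordycepin, 2.46 to 5.23 in LPS+DMSO and 2.99 to 5.22 in LPS+cordycepin. These ranges overlapped in all conditions and no change could be read from them, so the probe was not tested. The fall of Papolg therefore rests on 1 probe.

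**Figure D2:**
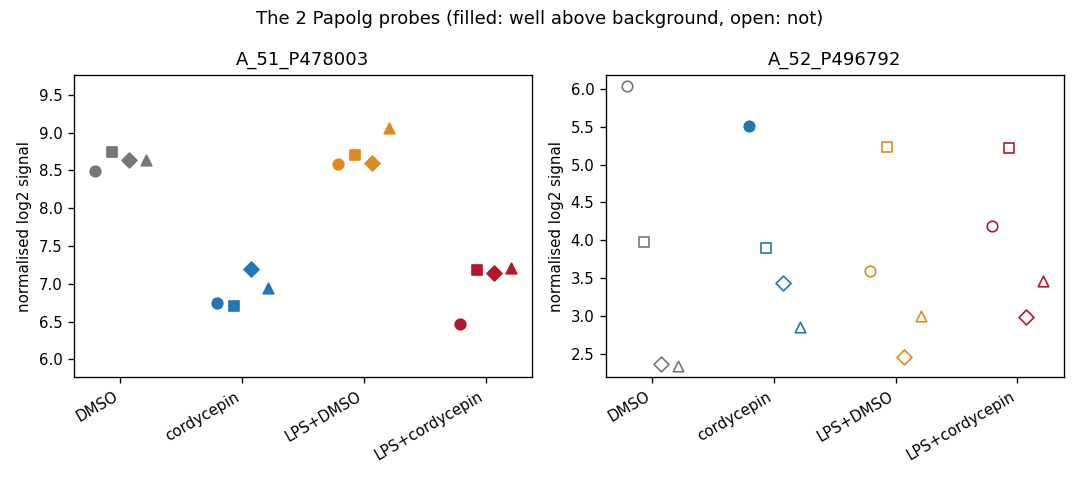
Normalised log2 signal of the 2 Papolg probes on the 16 arrays, by condition, with 1 point per array (circle, square, diamond and triangle for replicates 1 to 4) and both vertical axes 4 log2 units high. On the left all points are well above background and those with cordycepin lie between 6.47 and 7.21, below the lowest point without it at 8.50. On the right 1 point of 16 is filled, that is well above background.

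Papola encodes the main nuclear poly(A) polymerase. Its probe gave 10.93, 10.70, 10.73 and 10.82 in DMSO and 11.00, 11.22, 11.26 and 11.10 in cordycepin. It gave 10.62, 10.84, 10.70 and 10.71 in LPS+DMSO and 11.12, 11.25, 11.11 and 11.55 in LPS+cordycepin. Again no array with cordycepin overlapped those without it, although the gap was narrow, from 10.93 to 11.00. Papola rose by 0.35 (SE 0.11, adjusted p = 0.0326) in cordycepin, or 1.27-fold, and by 0.54 (SE 0.11, adjusted p = 0.00132) with LPS, or 1.45-fold, and was higher on all 4 days in each. Within slides 1 and 2 it changed by 0.30 and 0.40 without LPS (adjusted p = 0.387 and 0.204), and by 0.46 and 0.62 with LPS (0.176 and 0.0389). The call without LPS was lost on leaving out any 1 of replicates 2, 3 and 4 of DMSO or of cordycepin (change 0.31 to 0.36), or replicates 2, 3 or 4 of all conditions (0.29 to 0.37), and the call with LPS was kept without each array. It was also lost without LPS when arrays were scaled to the 75th percentile of all probes (0.29) and with no filter on dim probes, and in both settings when scaled to spiked-in controls (0.41 and 0.38).

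The 300 bases around the start of each of these genes, from 250 before it to 50 after, are shown because the pair moved in opposite directions. They are RefSeq sequences on GRCm38.p6, in the sense of the gene. Capitals mark matches on either strand to a GC box (GGGCGG) or a CCAAT box (CCAAT). The search also covered an ETS site (CCGGAAG), a cyclic AMP response element (TGACGTCA), an E-box (CACGTG) and an AP-1 site (TGANTCA).
Papolg, chr11:23895221-23895520, minus strand: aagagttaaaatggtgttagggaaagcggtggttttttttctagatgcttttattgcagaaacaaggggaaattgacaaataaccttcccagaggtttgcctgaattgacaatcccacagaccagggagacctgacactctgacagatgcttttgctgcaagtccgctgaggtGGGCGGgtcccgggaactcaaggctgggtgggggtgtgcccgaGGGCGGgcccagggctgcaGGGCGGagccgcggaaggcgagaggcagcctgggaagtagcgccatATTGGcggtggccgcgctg
Papola, chr12:105784447-105784746, plus strand: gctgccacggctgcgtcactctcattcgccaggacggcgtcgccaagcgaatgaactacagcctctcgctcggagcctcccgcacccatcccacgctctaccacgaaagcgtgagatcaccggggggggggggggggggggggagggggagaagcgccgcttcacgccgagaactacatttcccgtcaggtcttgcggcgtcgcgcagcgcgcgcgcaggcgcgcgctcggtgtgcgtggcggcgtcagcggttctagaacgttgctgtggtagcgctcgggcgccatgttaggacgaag
Papolg had 3 GC boxes and 1 CCAAT box, and Papola had 0 matches to the 6 motifs, at a GC content of 57.0% and 68.3%. Of 32851 promoters of this length, 35.7% held a GC box, 37.4% a CCAAT box, 8.86% the ETS site, 1.79% the cyclic AMP response element, 7.15% the E-box and 7.81% the AP-1 site. Of the 8 members with a promoter in the table, 4 held a GC box (Papolg, Papd5, Papd7 and Pabpc4), 3 a CCAAT box (Papolg, Pabpn1 and Zc3h14) and 1 the ETS site (Papd4). A match is a description of the letters and not a site, and Pabpc1 and Mtpap were not in the promoters used here.

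Papd4, also called Gld2, extends the tails of stored mRNAs in the cytoplasm. Its probe gave 12.32, 12.51, 12.42 and 12.12 in DMSO and 12.14, 12.05, 11.98 and 11.96 in cordycepin, where replicate 4 of DMSO lay within the range of the cordycepin arrays. It gave 12.35, 12.49, 12.30 and 12.46 in LPS+DMSO and 12.26, 12.22, 12.10 and 12.06 in LPS+cordycepin, which did not overlap. Papd4 fell by 0.31 in cordycepin (SE 0.09, adjusted p = 0.0327), and with LPS the change was -0.24 (SE 0.09, adjusted p = 0.0909). Within slides 1 and 2 it was -0.32 and -0.30 without LPS (adjusted p = 0.280 and 0.278). That call was lost on leaving out replicates 1, 2 or 3 of DMSO, replicates 2, 3 or 4 of cordycepin, or replicates 1, 2 or 3 of all conditions (-0.35 to -0.25). It was also lost with median scaling (-0.28), scaling to spiked-in controls (-0.25), normexp background correction and the authors' values (-0.30 each), no filter on dim probes, a fit without the LPS conditions and the methods' univariate test, while with LPS the change was called under scaling to the 75th percentile of all probes (-0.36).

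Papd5 and Papd7 encode closely related nuclear enzymes that add short tails to RNAs. Papd7 gave 10.81, 10.15, 10.45 and 10.33 in DMSO and 10.02, 9.75, 10.11 and 9.90 in cordycepin. With LPS it gave 10.66, 10.57, 10.34 and 10.62 in LPS+DMSO and 10.11, 10.20, 10.10 and 10.16 in LPS+cordycepin. The cordycepin arrays were below the vehicle arrays without overlap in both settings, by as little as 0.04 (10.15 against 10.11) without LPS. Papd7 fell by 0.49 (SE 0.13, adjusted p = 0.0135), or 1.40-fold, and with LPS by 0.41 (SE 0.13, adjusted p = 0.0339), or 1.32-fold. Within slides 1 and 2 the changes were -0.60 and -0.38 without LPS (adjusted p = 0.210 and 0.171) and -0.46 and -0.35 with it (0.340 and 0.166). The call without LPS was lost on leaving out replicate 2 of cordycepin (-0.42) or replicates 1, 3 or 4 of all conditions (-0.54 to -0.39). The call with LPS was lost without replicates 1, 2 or 4 of LPS+DMSO, replicates 1, 3 or 4 of LPS+cordycepin, or any 1 replicate number of all conditions (-0.46 to -0.36). Both calls were lost when arrays were scaled to spiked-in controls (-0.43 and -0.56) and with no filter on dim probes, the first also when the fit left out the LPS conditions and by the methods' univariate test, and the second with the authors' values (-0.37).

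Papd5 gave 11.38, 11.61, 11.41 and 11.24 in DMSO and 11.23, 11.07, 10.98 and 11.08 in cordycepin, without overlap. It gave 11.26, 11.42, 11.30 and 11.12 in LPS+DMSO and 11.29, 11.06, 10.98 and 11.29 in LPS+cordycepin, where the groups overlapped. Its changes were -0.32 (SE 0.11, adjusted p = 0.0508) and -0.12 (SE 0.11, adjusted p = 0.535), neither of them called. The change without LPS was called with slide as a term in the fit (adjusted p = 0.0319) and with an intensity trend and robust estimation (adjusted p = 0.0413). It was also called in 5 of the 20 fits that left out an array or a replicate number. The interval of the difference between the changes without and with LPS was -0.12 to 0.52, which includes 0.

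Mtpap, which adds tails to the mRNAs of the mitochondrion, gave 10.44, 10.50, 10.50 and 10.55 in DMSO and 10.13, 10.19, 10.41 and 10.22 in cordycepin. With LPS it gave 10.25, 10.44, 10.48 and 10.73 in LPS+DMSO and 10.12, 10.42, 10.16 and 10.21 in LPS+cordycepin. The groups did not overlap without LPS and overlapped with it. The changes of -0.26 (adjusted p = 0.114) and -0.25 (adjusted p = 0.123) were not called, and Mtpap was lower on all 4 days in each. With LPS it was called when arrays were scaled to the 75th percentile of all probes (-0.37, adjusted p = 0.0195). It was also called with LPS in 1 of the 20 fits that left out an array or a replicate number.

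Among the binding proteins, Pabpn1, which coats new tails in the nucleus, gave 15.25, 15.06, 15.23 and 15.30 in DMSO and 15.45, 15.43, 15.49 and 15.46 in cordycepin. It gave 15.30, 15.20, 15.41 and 15.24 in LPS+DMSO and 15.53, 15.45, 15.70 and 15.75 in LPS+cordycepin. In both settings every cordycepin array was above every vehicle array. Pabpn1 rose by 0.32 with LPS (SE 0.09, adjusted p = 0.0162), or 1.25-fold. Without LPS the change was 0.25 (SE 0.09, adjusted p = 0.0646), and with the replicate number as a block in the fit the same change was called (adjusted p = 0.0404). It was also called with slide as a term, median scaling, an intensity trend and the methods' univariate test, and in 1 of the 20 fits that left out arrays. Within slides 1 and 2 the changes were 0.29 and 0.21 without LPS and 0.24 and 0.40 with it (adjusted p = 0.441 and 0.0636 with LPS). The call with LPS was lost on leaving out replicate 2 of LPS+DMSO, replicates 3 or 4 of LPS+cordycepin, or replicates 1, 3 or 4 of all conditions (0.25 to 0.35). It was also lost when arrays were scaled to the 75th percentile of all probes (0.19) or to spiked-in controls (0.16), with no filter on dim probes, in a fit without the conditions that had no LPS and by the methods' univariate test.

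Pabpc1, the main cytoplasmic poly(A) binding protein, gave 17.22, 17.04, 16.96 and 16.94 in DMSO, 17.15, 17.26, 17.25 and 17.17 in cordycepin, 17.05, 16.95, 17.08 and 17.01 in LPS+DMSO, and 17.10, 17.21, 17.13 and 17.25 in LPS+cordycepin. Replicate 1 of DMSO stood among the cordycepin arrays, and the groups with LPS did not overlap. The changes of 0.17 and 0.15 were not called (adjusted p = 0.183 and 0.238).

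Pabpc4, a second cytoplasmic binding protein first described in activated T cells, varied more between arrays of a condition than the other members. It gave 12.59, 12.00, 12.55 and 12.55 in DMSO, 12.57, 12.35, 13.02 and 12.66 in cordycepin, 12.22, 12.53, 12.43 and 12.91 in LPS+DMSO, and 12.61, 12.31, 13.14 and 13.23 in LPS+cordycepin. The groups overlapped and the changes of 0.23 and 0.30 (SE 0.22 each) were not called, with 95% intervals of -0.23 to 0.69 and -0.16 to 0.76.

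Zc3h14 binds poly(A) through zinc fingers and not through the RNA recognition motifs of the other binding proteins. Its values lay between 11.22 and 11.78 on the 16 arrays, and the groups overlapped in both settings. The changes were -0.05 (95% interval -0.31 to 0.21) and 0.19 (-0.07 to 0.45), neither of them called. Over all members, the groups of arrays did not overlap for 6 of 10 in cordycepin against DMSO and for 6 of 10 with LPS, where the shares of all probes were 22.2% and 23.5%.

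**Figure D3:**
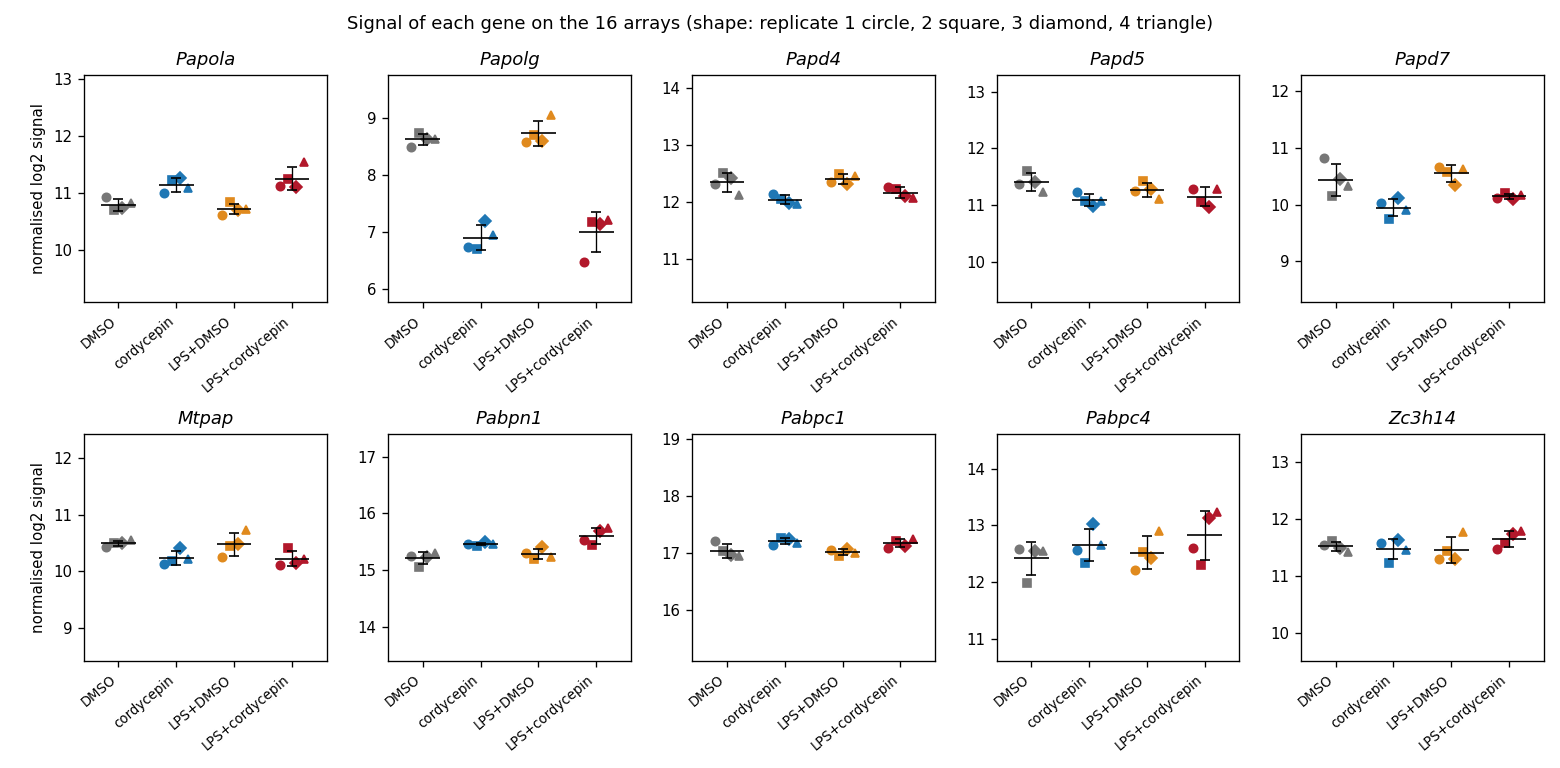
Normalised log2 signal of the tested probe of each of the 10 genes on the 16 arrays, by condition, with 1 point per array (shape for the replicate), a horizontal line for the mean of 4 arrays and bars of 1 SD. Every vertical axis spans 4 log2 units, and levels are not comparable between genes because probes differ in brightness. Papolg shows the one wide gap, from 8.50 down to 7.21.

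**Figure D4:**
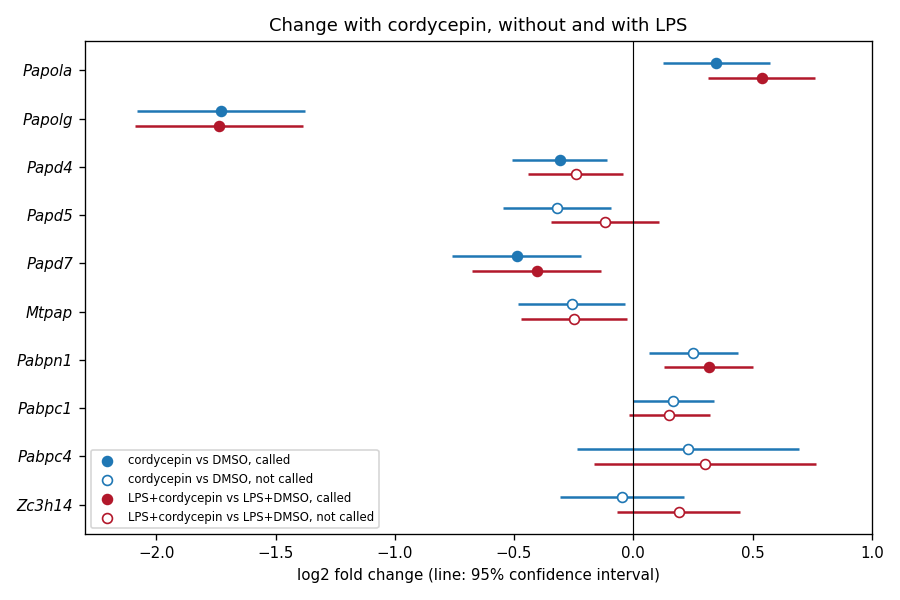
Log2 fold change of each gene in cordycepin against DMSO (blue) and LPS+cordycepin against LPS+DMSO (red), with 95% confidence intervals and filled points where called. Papolg lies at -1.73 and -1.74, Papola at 0.35 and 0.54, and the intervals of the pair of points overlap for every gene.

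Whether cordycepin acted differently on these genes once LPS was present was tested by the interaction in the same fit. Of the 10 probes 0 were called, and 0 had an unadjusted p under 0.05, where 0.519% of all probes were called. The differences between the 2 cordycepin changes ran from -0.02 for Pabpc1 to 0.24 for Zc3h14, with intervals within -0.58 to 0.73. For Papolg the difference was -0.01 (95% interval -0.50 to 0.49) and for Papola 0.19 (-0.13 to 0.51).

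Since the interaction gave no call, the mean of the 2 cordycepin changes of each gene, which sets 8 arrays with cordycepin against 8 without, was also fitted. This contrast was chosen after the separate values had been seen, and it uses the same arrays as the comparisons above. It called 8 of the 10 probes, 3 higher and 5 lower, where 15.7% of all probes were called higher and 12% lower, and 1 of the 5 (Papolg) fell at least 2-fold, as did 1.21% of all probes. Papola rose by 0.44 (SE 0.07, adjusted p = 0.000246), Pabpn1 by 0.28 (SE 0.06, adjusted p = 0.00232) and Pabpc1 by 0.16 (SE 0.06, adjusted p = 0.0471). All 5 of the lower calls were polymerases, which make up most of the group, and the remaining polymerase, Papola, was among the higher calls. Papolg fell by 1.73 (SE 0.12, adjusted p = 1.49e-08), Papd7 by 0.45 (SE 0.09, adjusted p = 0.00123), Papd4 by 0.27 (SE 0.07, adjusted p = 0.00489), Mtpap by 0.25 (SE 0.07, adjusted p = 0.0173) and Papd5 by 0.22 (SE 0.07, adjusted p = 0.0396).
Pabpc4 (0.27, SE 0.15) and Zc3h14 (0.07, SE 0.09) were not called. The calls for Papola, Papolg, Papd7 and Pabpn1 were kept on leaving out each array and each replicate number. That for Mtpap was lost without replicates 3 or 4 of all conditions and that for Papd4 without replicate 3. Those for Papd5 and Pabpc1 were lost in 14 and 17 of the 20 such fits. Papd5 was called without replicate 4 of all conditions, of DMSO, of LPS+DMSO or of LPS+cordycepin, or without replicate 1 of cordycepin or LPS+cordycepin, and Pabpc1 without replicate 1 of all conditions, of DMSO or of LPS+cordycepin. With the replicate number as a block the call of Pabpc1 was lost (adjusted p = 0.0655), as it was under quantile normalization, scaling to the 75th percentile of all probes (0.07), normexp, the authors' values and either other filter on dim probes. That of Papd5 was lost under quantile normalization, median scaling, normexp, the authors' values and no filter. The Mtpap call was lost with the authors' values (adjusted p = 0.0514) and with no filter (0.123), and the Papd4 call with no filter (0.0580). Scaling to spiked-in controls left only Papolg called. Within slide 1 Papolg alone was called, and within slide 2 Papola, Papolg, Papd7 and Pabpn1, with mean changes of 0.38 and 0.51 for Papola, -1.85 and -1.61 for Papolg, -0.53 and -0.37 for Papd7 and 0.26 and 0.30 for Pabpn1 in slides 1 and 2.

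LPS itself did not give a call for any of the 10 genes. In LPS+DMSO against DMSO 0 of 10 were called by limma, and 0 had an unadjusted p under 0.05, where 14.4% of all probes were called. The changes ran from -0.14 for Papd5 to 0.11 for Papolg and Papd7, and the widest 95% interval, that of Pabpc4, was -0.36 to 0.57. In LPS+cordycepin against cordycepin 0 of 10 were called and 0 had an unadjusted p under 0.05, where 7.88% of all probes were called, with changes from -0.04 for Pabpc1 to 0.20 for Papd7 and intervals within -0.29 to 0.64. For Papolg the changes with LPS were 0.11 (95% interval -0.24 to 0.46) and 0.10 (-0.25 to 0.45), and for Papola -0.08 (-0.30 to 0.15) and 0.11 (-0.11 to 0.34). The first of these comparisons shares its DMSO arrays with the cordycepin comparison without LPS, and the second its cordycepin arrays.

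**Figure D5:**
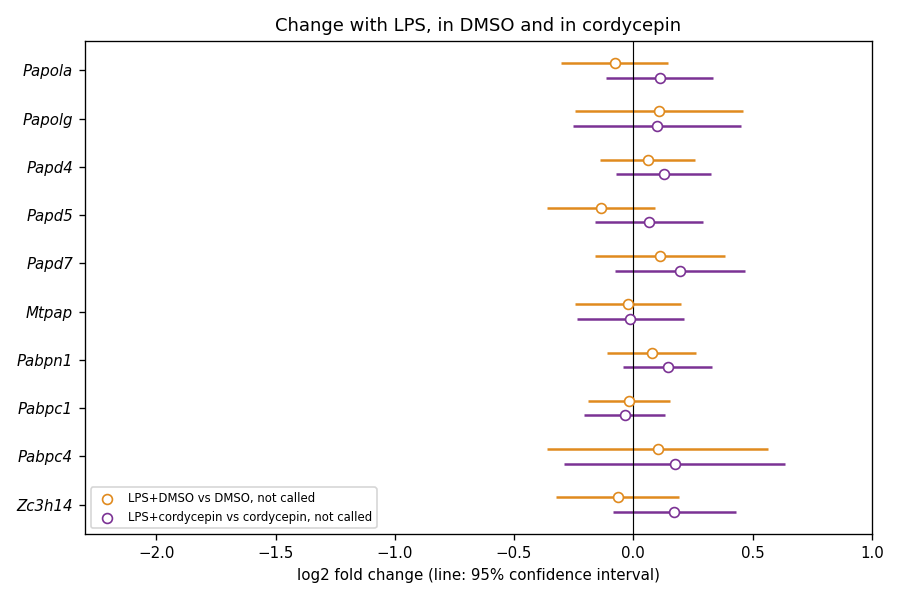
Log2 fold change of each gene with LPS, in DMSO (orange) and in cordycepin (purple), with 95% confidence intervals and open points because none was called. The horizontal axis is that of the plot of cordycepin changes, and all points lie between -0.14 and 0.20.

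Further genes of the pathway were taken from 4 lists, and for each comparison the called probe with the largest change is named. Of all probes tested, 9.71% were called higher and 7.05% lower in cordycepin against DMSO. In LPS+cordycepin against LPS+DMSO these shares were 12% and 8.18%. They were 5.03% and 9.39% in LPS+DMSO against DMSO, and 3.38% and 4.5% in LPS+cordycepin against cordycepin. The counts of each list stand beside these shares and were not tested against them. The first holds relatives of the members, 15 symbols with 10 probes tested for 7 genes, and the testis polymerase Papolb, the third canonical enzyme, was well above background on 0 arrays. With cordycepin, 0 of these probes were called higher and 1 lower, the uridylyl transferase Zcchc11 at -0.47 (SE 0.14, adjusted p = 0.0293), although its other probe was at -0.15 and not called. In LPS+DMSO against DMSO 1 was higher and 2 lower, with Fam46c, a noncanonical polymerase, higher by 1.31 (SE 0.25, adjusted p = 0.00170). In LPS+cordycepin against LPS+DMSO 1 was higher and 3 lower, and Fam46c fell by 1.01 (SE 0.25, adjusted p = 0.00747). In LPS+cordycepin against cordycepin 1 was higher (Fam46c, 0.96, SE 0.25) and 1 lower. The medians of the list were -0.18, 0.01, -0.17 and 0.11 in these comparisons, and those of all probes tested 0.04, -0.04, 0.03 and -0.05.

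The second list holds partners of the tail and of its binding proteins, 22 genes with 34 probes tested. With cordycepin 2 probes were called higher and 2 lower, and the largest change was that of Zcchc7, a subunit with Papd5 or Papd7 of the nuclear complex that tails RNAs for decay, at -1.25 (SE 0.18, adjusted p = 9.38e-05). Its other probe fell too, by 0.79 (SE 0.11, adjusted p = 6.04e-05), and with LPS the 2 probes fell by 1.04 and 0.70. In LPS+cordycepin against LPS+DMSO 2 probes were higher and 3 lower, for 2 genes each, and 1 probe of the cap binding protein Eif4e rose by 1.04 (SE 0.20, adjusted p = 0.00114) while its other 2 probes were at -0.02 and -0.35 and not called. In LPS+DMSO against DMSO 3 probes were higher and 0 lower, with Cpeb4, which binds a tail-regulating element of mRNAs, higher by 1.36 (SE 0.22, adjusted p = 0.000402), and in LPS+cordycepin against cordycepin Cpeb4 was the 1 called, higher by 0.94 (SE 0.22). The Cpeb4 probe was well above background on 2 of 4 arrays in DMSO and 3 of 4 in cordycepin, so its changes are uncertain in size. Medians were 0.02, -0.02, 0.10 and 0.06 in the order given here.

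The core factors that cut the 3′ end made up the third list, 16 genes with 24 probes tested. With cordycepin 2 were higher and 4 lower, and in LPS+cordycepin against LPS+DMSO 0 were higher and 6 lower, at medians of 0.09 and -0.02. The largest change in both was that of 1 probe of Rbbp6, a subunit that activates cleavage, which fell by 1.48 (SE 0.15, adjusted p = 2.71e-06) and by 1.69 (SE 0.15, adjusted p = 5.03e-07). This probe was dim, well above background on all 4 arrays of DMSO and of LPS+DMSO but on 2 of 4 in each cordycepin condition, so the size of its change is uncertain. The other tested probe of Rbbp6, well above background on all 16 arrays, was at 0.19 and 0.15 in these comparisons and not called. LPS raised 3 of these probes in DMSO and 2 in cordycepin and lowered 0. The largest change was that of Pcf11, a cleavage factor that also acts in termination, at 0.75 and 0.81 (SE 0.20 each). Its probe was well above background on 2 of 4 arrays in DMSO, 3 of 4 in cordycepin and all 8 with LPS. The size of these changes is therefore uncertain. Another Pcf11 probe, well above background on 8 of 16 arrays, was not tested.
The fourth list, enzymes that shorten the tail, had 13 genes with 17 probes tested, of which 0 were called by limma in cordycepin against DMSO (1 at an unadjusted p under 0.05), 0 in each comparison with LPS as the variable, and 1 in LPS+cordycepin against LPS+DMSO, Pde12, a mitochondrial deadenylase, at -0.39 (SE 0.11, adjusted p = 0.0153).

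The genes whose signal ran most like that of Papolg over the 16 arrays were Hinfp (Pearson r = 0.989), a transcription factor of histone H4 genes, Fbxo46 (0.986), an F-box protein, and Trim13 (0.985), a ubiquitin ligase, among 15909 probes of other named genes. Their changes with cordycepin were -2.39, -1.62 and -1.26 without LPS and -2.39, -2.04 and -1.24 with it. For Papola the nearest were B230219D22Rik (0.960), 1500032P08Rik (0.925) and the ubiquitin conjugating enzyme Ube2l3 (0.914), with changes of 0.66, 1.18 and 0.27 without LPS and 0.86, 1.60 and 0.44 with it. These coefficients describe arrays that fall into 2 sets by cordycepin and share slides and days. Among the members themselves, Papolg and Papola had a coefficient of -0.80 and Papolg and Mtpap one of 0.82 over the same arrays.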

How the data were processed

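The 16 arrays of RAW264.7 cells were used. Per the labels, the RNA was labelled with Cy3 using a low input kit, which primes from the poly(A) tail, and how tail length bears on the signal was not tested. The authors deposited scanner files with a raw and a processed intensity for each of 59305 spots (background and spatial trend removed), from Agilent Feature Extraction, version 10.7.3.1 in the file headers and 10.10.1.1 in the submitters' processing notes, which also name limma, with positions on mm9. The authors also deposited a table of log2 values of 25775 spots, with its normalization not given in the sources used here, whose array medians were 9.42 to 9.458. It served as an alternative, correlated with the scanner values by 0.995 to 0.998 and held all 10 tested probes of the members.

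The log2 of the processed intensity was taken, outlier spots were left out (127 missing values), and spots of a probe were averaged. Arrays were scaled to the 75th percentile of the 18064 probes that were well above background on every array, since under 50% of spots were on most arrays. The 4 condition means were fitted per probe with limma 3.58.1 in R 4.3.3 over all 16 arrays, for 5 comparisons and 1 added contrast, with Benjamini-Hochberg adjustment over 21597 probes. On simulated data with 200 changed probes, 38 of 100 log2 changes of 0.5 and 91 of 100 of 1.5 were recovered with 9 false calls for cordycepin against DMSO, and 32, 87 and 7 for LPS+cordycepin against LPS+DMSO.

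Groups came from the labels. All members are reported, list genes by the largest called change, and genes most alike by correlation. The members and lists were chosen with earlier results of these data known. Replicate numbers mark shared days per the labels. Deviations of same-numbered arrays correlated by a mean of 0.19 (-0.07 to 0.42, over 0.1 in 20 of 24 pairs), against 0.17 for other numbers on the same slide and -0.18 between slides. Alternatives were other scalings, background correction, filters, blocks for replicate and slide, thresholds, the methods' univariate test, and leaving out arrays. Promoters and names came from RefSeq (GRCm38.p6), matched for 8 and 10 members. Files were read and plots drawn in Python 3.11.15 (pandas 2.3.3, numpy 2.4.6, matplotlib 3.10.9).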

Additional observations from a re-analysis of the deposited data

Results flagged for a closer look

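Among the 40 groups of 4 arrays (10 probes in 4 conditions), 2 held an array whose gap to the nearest other, relative to the range of the group, passed the 95% limit of Dixon's test, the number that chance gives at 1 in 20. Replicate 1 of LPS+cordycepin gave 6.47 for Papolg against 7.14 to 7.21 on the other 3 arrays. Replicate 2 of DMSO gave 12.00 for Pabpc4 against 12.55 to 12.59.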

How the results depend on the processing

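No called change of a member reversed under any alternative run. Papolg was called in both cordycepin comparisons under every alternative run, at -1.89 to -1.28 without LPS and -1.90 to -1.18 with it, the smallest after normexp background correction. The counts of members called were less stable, for which the cause was not tested. In cordycepin against DMSO, 4 were called as reported, and 1 with spiked-in control scaling, with no filter on dim probes, within slide 1, within slide 2, with at least 2-fold or with an adjusted p under 0.01, and 2 when the other conditions were left out of the fit. In LPS+cordycepin against LPS+DMSO 4 became 1 with spiked-in scaling, within slide 1 or at 2-fold, and 2 with no filter, within slide 2 or under 0.01. For the mean of both, 8 became 1 with spiked-in scaling, within slide 1 or at 2-fold, 4 with no filter or within slide 2, and 5 with the authors' values or under 0.01. Leaving out arrays or replicates gave 1 to 5, 2 to 4 and 4 to 8. Some alternatives gave more, namely 6 without LPS with slide as a term or an intensity trend with robust estimation, and 5 with LPS on scaling to the 75th percentile of all probes, and median scaling without LPS kept 4 with Pabpn1 in place of Papd4. The replicate block gave 5, 4 and 7, and of the separate comparisons changed only the call of Pabpn1 without LPS, and for the mean that of Pabpc1. Over all changes and alternatives, leave-outs included, 1965 kept their side of the threshold, 139 lost a call and 16 gained one. Most of these changes were not called as reported and had no call to lose. The 139 losses therefore fell on the called changes alone, and the 1965 do not measure how stable the calls were. Spiked-in scaling put the median of all probes with LPS at -0.12 in place of 0.03. It made 90.9% and 76.5% of all calls higher without and with LPS, against 58% and 59.5% as reported, and quantile normalization 48.3% and 48.2%. A change of 0.5 was recovered in under 50% of simulated probes, in data with 200 changed probes. The arrays gave many more calls, with 2098 probes higher and 1522 lower in cordycepin against DMSO. In LPS+cordycepin against LPS+DMSO 2598 were higher and 1767 lower. The adjusted p depends on how many probes change, so the simulated share does not measure the sensitivity of these comparisons. Small changes that were not called may still have been missed.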
